A study of Mus musculus with 27 samples.

Results

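Hepatic stellate cells are a minor cell type of the liver, and 10 genes known from them or from the matrix they lay down were followed through RNA sequencing libraries of mouse hepatocytes. The genes were Lrat, Reln, Rgs5, Des, Hgf, Colec11, Dcn, Ecm1, Col3a1 and Col1a1, taken as the 10 entries of the deposited count table, among 43346, whose Ensembl identifier carries that symbol in the GENCODE M21 annotation. All 10 passed the filter on low counts, along with 14482 genes in all. All mice were female and 12 weeks old, and each of 9 inbred strains gave 3 biological replicates, for 27 libraries. These strains were 129S1/SvImJ, A/J, C57BL/6J, CAST/EiJ, DBA/2J, NOD/ShiLtJ, NZO/HlLtJ, PWK/PhJ and WSB/EiJ. No treatment or engineered allele is given, and the study asks how inherited variation among these strains relates to gene expression and chromatin in the same mice. Chromatin and DNA methylation data were not used here.

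Stellate cells lie between the hepatocytes and the sinusoidal endothelium, where they store vitamin A as retinyl esters, wrap the capillaries as pericytes do, and release growth factors. When the liver is injured they turn into contractile myofibroblasts and become the main source of fibrillar collagen. A hepatocyte preparation is meant to leave them behind, so their transcripts would come from cells other than those the samples are named for. In bulk RNA, fewer cells of a type and less RNA per cell cannot be told apart.

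Depth ran from 17015932 to 35078483 counts per library. The hepatocyte markers were high in every library: Alb, serum albumin, averaged 132000 CPM (counts scaled to library sizes, which were adjusted by the trimmed mean of M-values, TMM). The 10 genes together held between 0.00381% and 0.0182% of a library's counts. Of 10 contractile genes of activated or vascular cells, 6 were near the floor and not tested: Acta2 (smooth muscle actin) and Myh11 with at most 6 counts per library, Cnn1 with at most 3, Myl9 with at most 8, Lmod1 with at most 2 and Actg2 with 0 counts in all 27 libraries. The other 4 were detected, Tagln with 13 to 52 counts, Smtn with 21 to 113, Tpm2 with 0 to 181 and Mylk with 436 to 3185. Of 22 further stellate cell genes 21 were detected well enough to be tested, and the exception was Gfap with 0 to 14 counts.

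The strains differed in 7 of the 10 genes by edgeR's quasi-likelihood test of any strain difference, called at an adjusted p under 0.05, and 74.2% of all genes tested were called in the same way. A share of 70.0% is near that background. Reln had the smallest adjusted p (2.62e-05), followed by Col3a1 (3.06e-05), Colec11 (0.000115), Ecm1 (0.000221), Hgf (0.000231), Rgs5 (0.000602) and Dcn (0.0147). Col1a1 (0.107), Lrat (0.179) and Des (0.459) were not called. The median F was 6.82 over the 10 genes and 4.39 over all genes tested. Replicates of a strain also spread more: the median standard deviation (SD) within strains was 0.57 on the log2 CPM scale for these genes and 0.28 for all genes. The share of the sum of squares that lay between strains had a median of 70.6% (jackknife standard error 10) against 66.6% over all genes. It ran from 32.3% for Des to 82.7% for Col3a1.

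Levels per length, in CPM per kilobase of the longest annotated transcript, placed Ecm1 first at 18. Dcn followed at 5.02, Colec11 at 3.31, Rgs5 at 2.05 and Reln at 1.12. Lrat (0.647), Hgf (0.450), Col3a1 (0.313), Des (0.256) and Col1a1 (0.0353) came last. Ecm1 thus ranked at the 85.5th percentile of genes tested per length and Col1a1 at the 1.0th.

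All 10 are protein-coding genes on autosomes. Lrat lies on chromosome 3 (82892579 to 82903973, minus strand), Des and Col3a1 on chromosome 1 (75360329 to 75368579 and 45311538 to 45349706, both plus) and Hgf on chromosome 5 (16553495 to 16620152, plus). Colec11 is on chromosome 12 (28594173 to 28623377, minus), Dcn on chromosome 10 (97479609 to 97518143, plus) and Col1a1 on chromosome 11 (94936224 to 94953042, plus), all in GENCODE M21 on GRCm38. Reln, Rgs5 and Ecm1 are placed with their values.

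**Figure D1:**
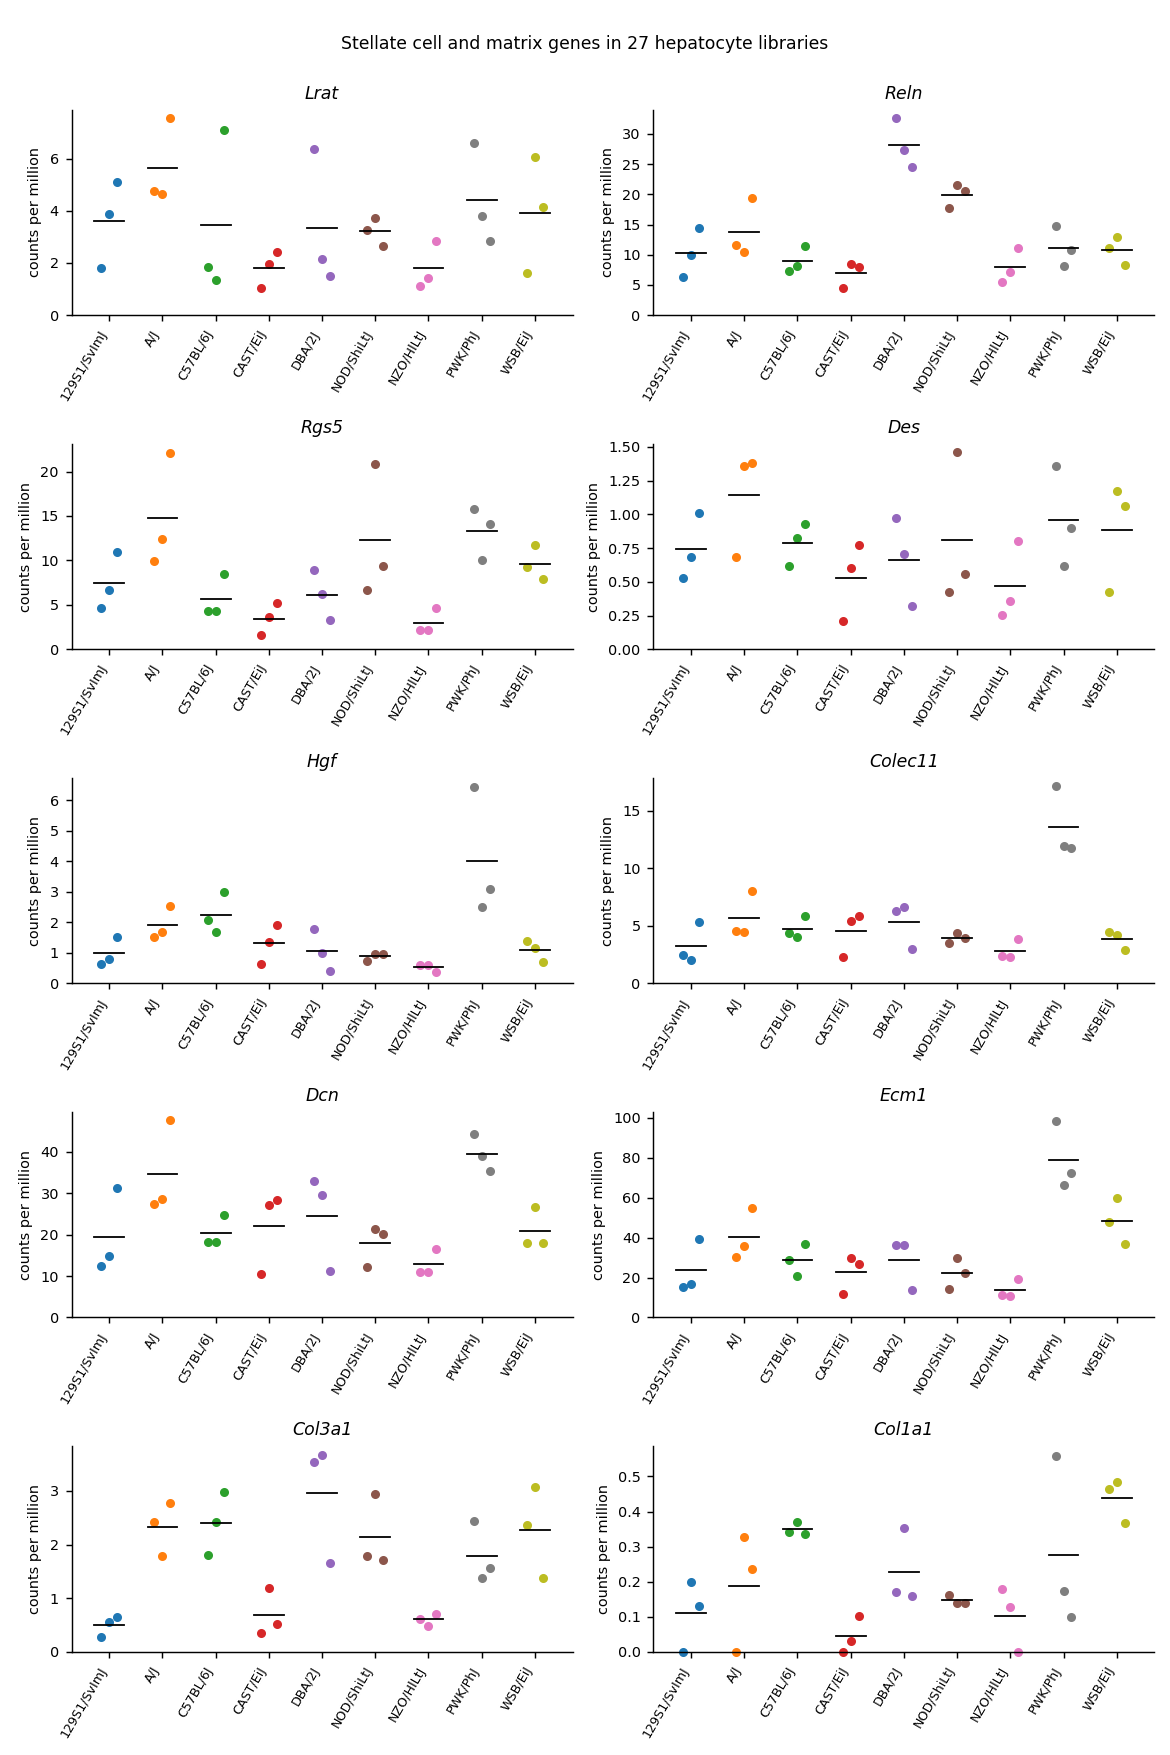
CPM (vertical axes, linear, starting at 0) of the 10 genes in the 27 libraries, by strain. Each point is a library and each bar the mean of 3. The DBA/2J points of Reln (24.5 to 32.6) and the PWK/PhJ points of Colec11 (11.8 to 17.1) and Ecm1 (66.4 to 98.5) lie above all points of the other strains.

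Each strain was then set against the mean of the other 8 strains, and pairs of strains were compared, with p-values adjusted over all genes within each contrast. The 10 genes gave 23 calls among 90 such contrasts, 12 higher and 11 lower. Of all genes tested, the share called higher ran from 9.2% (NOD/ShiLtJ) to 20.1% (CAST/EiJ) by strain. The share called lower ran from 3.78% (DBA/2J) to 17.8% (CAST/EiJ). As shares of the 90, both counts lie within these ranges. Calls fell mainly in PWK/PhJ, where 5 genes were higher, and in NZO/HlLtJ, where 7 genes were lower. Of all genes tested, 19.4% were called higher in PWK/PhJ and 12.9% lower in NZO/HlLtJ. Without PWK/PhJ replicate 1 the count in PWK/PhJ was 3 (14.1% of all genes). Without NZO/HlLtJ replicate 1 or 2 the count in NZO/HlLtJ was 2 (5.57% and 5.77% of all genes). Among the 360 pair contrasts of the 10 genes 77 were called (21.4%), beside 23.4% of the pair contrasts of all genes. Of the 23 calls 6 held when each of the 27 libraries was left out in turn, 13 were lost without 1 or 2 particular libraries, and 4 were lost in over 10 of the 27 fits. No call changed sign in any of them.

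**Figure D2:**
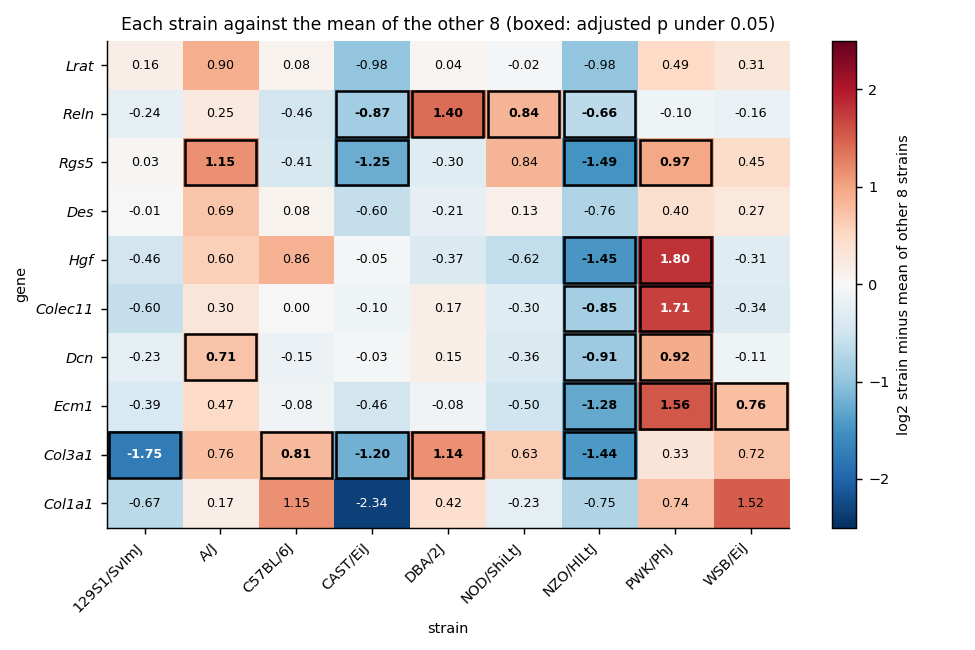
Log2 difference between each strain and the mean of the other 8 strains (colour and printed value) for the 10 genes. Boxed cells passed an adjusted p of 0.05 by edgeR. PWK/PhJ holds 5 boxes, all higher, and NZO/HlLtJ holds 7, all lower.

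The genes that mark stellate cells and pericytes are described first. Reln encodes reelin, a large secreted glycoprotein best known from neuronal migration and made in the liver by stellate cells. It lies on chromosome 5 (GRCm38, 21884454 to 22344702, minus strand). In DBA/2J it measured 32.6, 27.4 and 24.5 CPM in the 3 libraries. NOD/ShiLtJ had 17.7, 21.6 and 20.5 CPM, whereas the other 7 strains ran from 4.49 to 19.4 CPM. All DBA/2J libraries were above all others, and NOD/ShiLtJ overlapped only with A/J replicate 3. Against the other 8 strains Reln was 2.64-fold higher in DBA/2J (log2 1.4 ± 0.20, standard error; adjusted p 1.4e-05 by edgeR), a call kept in every fit that left out a library, and 9.5% of all genes were higher in this strain. In NOD/ShiLtJ it was 1.79-fold higher (log2 0.84 ± 0.21, adjusted p 0.00679), beside 9.2% of all genes. Without NOD/ShiLtJ replicate 2 that adjusted p was 0.0623.

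At the other end Reln measured 4.49, 8.49 and 7.89 CPM in CAST/EiJ, 0.546 times the level of the other strains (log2 -0.87 ± 0.25, adjusted p 0.00738). Of all genes 17.8% were lower in CAST/EiJ. Leaving out CAST/EiJ replicate 1, the lowest library, gave an adjusted p of 0.0988. NZO/HlLtJ, with 5.50, 7.16 and 11.1 CPM, overlapped with most strains, and its call (log2 -0.66 ± 0.24, adjusted p 0.0432) was lost in 13 of the 27 fits that left out a library, with adjusted p up to 0.284. DBA/2J and NOD/ShiLtJ did not overlap but were not called against each other (log2 0.50 ± 0.30, adjusted p 0.33). DBA/2J was called against each of the remaining 7 strains and NOD/ShiLtJ against 6 of them, all but A/J. A/J against CAST/EiJ and against NZO/HlLtJ completed the 15 called pairs.

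Rgs5, a regulator of G-protein signalling found in pericytes, lies on chromosome 1 (169655501 to 169695813, plus strand). It measured 9.91, 12.4 and 22.1 CPM in A/J and 15.8, 10.1 and 14.1 CPM in PWK/PhJ. In NZO/HlLtJ the libraries had 2.12, 2.13 and 4.59 CPM, and in CAST/EiJ 1.6, 3.59 and 5.16 CPM. The A/J and PWK/PhJ libraries were all above the CAST/EiJ and NZO/HlLtJ libraries. Rgs5 was 2.22-fold higher in A/J than in the other strains (log2 1.15 ± 0.31, adjusted p 0.0074), where 15.9% of all genes were higher, and without A/J replicate 3 the adjusted p was 0.217. It was 1.96-fold higher in PWK/PhJ (log2 0.97 ± 0.31, adjusted p 0.0169), with an adjusted p of 0.108 without replicate 1 and of 0.0692 without replicate 3 of that strain.

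In NZO/HlLtJ Rgs5 stood at 0.356 times the other strains (log2 -1.49 ± 0.39, adjusted p 0.00669), and leaving out replicate 1 or 2 of that strain gave adjusted p-values of 0.0637 and 0.0647. CAST/EiJ was at 0.420 times (log2 -1.25 ± 0.39, adjusted p 0.0133), with an adjusted p of 0.131 without its replicate 1. All 8 called pairs set CAST/EiJ or NZO/HlLtJ against A/J, NOD/ShiLtJ, PWK/PhJ or WSB/EiJ. The difference between A/J and NZO/HlLtJ (log2 2.34 ± 0.48, adjusted p 0.000691) held in every fit that left out a library.

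Lrat encodes lecithin retinol acyltransferase, the enzyme that makes the retinyl esters stellate cells store. Over the 27 libraries it ran from 1.03 to 7.55 CPM with a median of 2.85 CPM. A/J had the highest mean, 5.64 ± 1.65 CPM (SD, n = 3), and NZO/HlLtJ the lowest, 1.80 ± 0.932 CPM. In C57BL/6J the libraries had 1.85, 1.36 and 7.11 CPM, so that replicate 4 lay above 2 of the 3 A/J libraries. Without that library the test of any strain difference gave an adjusted p of 0.0392 in place of 0.179. A/J was called against CAST/EiJ (adjusted p 0.0283) and NZO/HlLtJ (0.0308). Both calls were lost without A/J replicate 3 (0.112 and 0.131), the first also without CAST/EiJ replicate 1 (0.122) or 4 (0.0601), and the second without NZO/HlLtJ replicate 1 (0.122) or 2 (0.103).

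Des encodes desmin, an intermediate filament of muscle and of rodent stellate cells. It was low, at 7 to 42 counts per library and 0.207 to 1.46 CPM. The strain means ran from 0.470 ± 0.291 CPM in NZO/HlLtJ to 1.14 ± 0.396 CPM in A/J, and the libraries of all strains overlapped. None of its 36 pairs of strains was called, and A/J against NZO/HlLtJ gave log2 1.29 ± 0.57 (adjusted p 0.0765), which was 0.0475 without A/J replicate 1 and 0.0291 without NZO/HlLtJ replicate 3. Des overlaps an antisense gene over 220 exon bases and Reln another over 246, and because the library kit does not mark strand their reads cannot be told apart there. Hgf likewise shares 484 exon bases with a predicted gene on its own strand.

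Among secreted factors, Hgf encodes hepatocyte growth factor, the ligand of the Met receptor, which stellate cells supply to hepatocytes. In PWK/PhJ it measured 6.43, 2.51 and 3.09 CPM, the first from replicate 1. C57BL/6J had 2.08, 1.68 and 2.99 CPM and NZO/HlLtJ 0.612, 0.607 and 0.385 CPM. PWK/PhJ overlapped with C57BL/6J and A/J and lay above the other 6 strains. Hgf was 3.47-fold higher in PWK/PhJ than in the other strains (log2 1.80 ± 0.29, adjusted p 3.18e-05) and still log2 1.28 higher without PWK/PhJ replicate 1 (adjusted p 0.00704). In NZO/HlLtJ it stood at 0.367 times the others (log2 -1.45 ± 0.40, adjusted p 0.00941), with an adjusted p of 0.058 without replicate 3 of that strain. PWK/PhJ against NZO/HlLtJ was the widest difference among the 8 called pairs, log2 2.88 ± 0.49 (adjusted p 6.36e-05).

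Colec11 encodes collectin-11, a soluble lectin that starts the lectin pathway of complement. PWK/PhJ had 17.1, 11.9 and 11.8 CPM, and the other 24 libraries ran from 2.06 to 8.02 CPM. No library of another strain reached the PWK/PhJ range. Colec11 was 3.27-fold higher in PWK/PhJ (log2 1.71 ± 0.23, adjusted p 2.33e-06 by edgeR), a call kept in every fit that left out a library, and log2 1.51 higher without PWK/PhJ replicate 1 (adjusted p 0.000183). PWK/PhJ was called against each of the other 8 strains. The closest was A/J, with log2 1.25 ± 0.36 (adjusted p 0.00917, at most 0.0455 when a library was left out). NZO/HlLtJ, with 2.34, 2.28 and 3.82 CPM, was at 0.553 times the other strains (log2 -0.85 ± 0.29, adjusted p 0.0324), with adjusted p-values of 0.169 and 0.177 without its replicate 1 or 2.

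The matrix genes follow. Ecm1, extracellular matrix protein 1, is a secreted glycoprotein known to hold latent TGF-beta in check in the liver. It lies on chromosome 3 (95734147 to 95739569, minus strand) and measured 98.5, 66.4 and 72.3 CPM in PWK/PhJ. WSB/EiJ came next with 47.8, 59.6 and 36.8 CPM, and NZO/HlLtJ was lowest with 11.1, 10.9 and 19.1 CPM. PWK/PhJ lay above all other libraries, whereas WSB/EiJ overlapped with A/J and others. Ecm1 was 2.96-fold higher in PWK/PhJ (log2 1.56 ± 0.26, adjusted p 3.83e-05) and log2 1.38 higher without replicate 1 of that strain (adjusted p 0.00174). In NZO/HlLtJ it stood at 0.411 times the other strains (log2 -1.28 ± 0.33, adjusted p 0.00647), with adjusted p-values of 0.0586 and 0.0606 without replicate 1 or 2.

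The WSB/EiJ call of Ecm1 (log2 0.76 ± 0.28, adjusted p 0.049, beside 15.5% of all genes called higher in that strain) was lost in 16 of the 27 fits that left out a library, with adjusted p up to 0.286. PWK/PhJ and WSB/EiJ were not called against each other (log2 0.72 ± 0.40, adjusted p 0.175). PWK/PhJ was called against 6 strains, all but A/J and WSB/EiJ.

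Dcn encodes decorin, a small leucine-rich proteoglycan that binds collagen fibrils. PWK/PhJ measured 44.2, 39.0 and 35.2 CPM, A/J 27.4, 28.6 and 47.7 CPM, and NZO/HlLtJ 11.0, 11.0 and 16.4 CPM. PWK/PhJ lay above every library except A/J replicate 3. Dcn was 1.90-fold higher in PWK/PhJ (log2 0.92 ± 0.26, adjusted p 0.00746), with an adjusted p of 0.0538 without its replicate 1. It stood at 0.534 times the other strains in NZO/HlLtJ (log2 -0.91 ± 0.31, adjusted p 0.0313), with adjusted p-values of 0.154 and 0.155 without replicate 1 or 2. The A/J call (log2 0.71 ± 0.27, adjusted p 0.0498) was lost in 14 of the 27 fits that left out a library, with adjusted p up to 0.473. PWK/PhJ against NZO/HlLtJ (log2 1.63 ± 0.39, adjusted p 0.00218) held in all of them.

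Col3a1 encodes the chain of type III collagen, a fibrillar collagen of soft tissues. Its pattern differed from that of the genes above. The 3 libraries had 0.279, 0.544 and 0.652 CPM in 129S1/SvImJ, 0.612, 0.481 and 0.706 CPM in NZO/HlLtJ and 0.355, 1.18 and 0.516 CPM in CAST/EiJ. The other 6 strains ran from 1.37 to 3.67 CPM, so that no library of the lower 3 strains reached any library of the upper 6. The 18 called pairs were the 18 that set 129S1/SvImJ, CAST/EiJ or NZO/HlLtJ against one of the other 6 strains.

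Against the mean of the others Col3a1 was at 0.297 times in 129S1/SvImJ (log2 -1.75 ± 0.37, adjusted p 0.00141) and at 0.369 times in NZO/HlLtJ (log2 -1.44 ± 0.35, adjusted p 0.00388). Both calls held in every fit that left out a library, and 7.86% of all genes were lower in 129S1/SvImJ. In CAST/EiJ it was at 0.435 times (log2 -1.20 ± 0.35, adjusted p 0.00886), with adjusted p-values of 0.104 and 0.0578 without replicate 1 or 5. Between neighbours in the order of strain means, the called pairs were Colec11 in PWK/PhJ over A/J and Col3a1 in PWK/PhJ over CAST/EiJ. The latter gave log2 1.36 ± 0.43 (adjusted p 0.0163 by edgeR). The Col3a1 pair was lost without CAST/EiJ replicate 1 (0.103) or 5 (0.0616) or PWK/PhJ replicate 1 (0.0924).

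DBA/2J had the highest Col3a1, with 3.55, 3.67 and 1.66 CPM, 2.20-fold above the other strains (log2 1.14 ± 0.28, adjusted p 0.00561). Leaving out its replicate 2 or 3 gave adjusted p-values of 0.083 and 0.091. The call in C57BL/6J (log2 0.81 ± 0.28, adjusted p 0.0492, beside 11.6% of all genes called higher there) was lost in 18 of the 27 fits that left out a library, with adjusted p up to 0.335.

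Col1a1, the main chain of type I collagen, was barely detected, with 0 to 14 counts per library and 0 counts in 4 libraries, where a count of 0 allows up to 3 counts. CAST/EiJ libraries held 0, 1 and 2 counts, and WSB/EiJ libraries 11, 12 and 8. C57BL/6J had 10, 9 and 8 counts. WSB/EiJ and C57BL/6J were each called against CAST/EiJ (adjusted p 0.0156 and 0.0278 by edgeR). Col1a1 passed the filter on low counts only through WSB/EiJ replicates 2 and 3 and PWK/PhJ replicate 1, where it was high. The WSB/EiJ call thus uses libraries that let the gene be tested. With a mean of at least 10 counts as the filter, Col1a1 was not tested. The WSB/EiJ call was lost without CAST/EiJ replicate 1 (0.0838) or 4 (0.0621), and the C57BL/6J call without those (0.124 and 0.0914) or without C57BL/6J replicate 2 (0.0581) or 4 (0.0552). No other pair was called for Col1a1 by edgeR, whereas DESeq2 called it lower in CAST/EiJ than in the other 8 strains (adjusted p 0.0391, and 0.0569 by edgeR).

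The sequences upstream of 4 of these genes are shown because the genes differed in which strain was high or low: Reln in DBA/2J, Rgs5 in CAST/EiJ and NZO/HlLtJ, Ecm1 in PWK/PhJ, and Col3a1 in 129S1/SvImJ. They are the 250 bases before the gene's start in RefSeq, build GRCm38.p6, reference sequence and not that of each strain, written 5′ to 3′ on the gene's strand. Of the 10 genes 8 were in the table of promoters used. Capitals mark matches, on either strand, to the TATA box spelled TATAAA or to the CCAAT box. They also mark the GC box spelled GGGCGG and the AP-1 site spelled TGANTCA, in which N is any base. The last of the motifs searched was the E-box spelled CACGTG, and no match overlapped another motif's match. The windows are chr5:22344706-22344955 (minus) for Reln, chr1:169655251-169655500 (plus) for Rgs5, chr3:95739570-95739819 (minus) for Ecm1 and chr1:45311288-45311537 (plus) for Col3a1.
Reln: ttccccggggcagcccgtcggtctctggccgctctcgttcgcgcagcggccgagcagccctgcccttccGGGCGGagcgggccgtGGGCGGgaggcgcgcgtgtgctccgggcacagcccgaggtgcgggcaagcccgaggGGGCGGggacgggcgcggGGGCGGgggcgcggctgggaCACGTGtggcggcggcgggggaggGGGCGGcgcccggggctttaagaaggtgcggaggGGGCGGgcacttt
Rgs5: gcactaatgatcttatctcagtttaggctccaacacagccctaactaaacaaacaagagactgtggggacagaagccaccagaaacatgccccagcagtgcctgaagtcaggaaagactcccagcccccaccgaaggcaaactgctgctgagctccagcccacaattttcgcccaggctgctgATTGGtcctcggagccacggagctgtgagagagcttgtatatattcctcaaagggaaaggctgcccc
Ecm1: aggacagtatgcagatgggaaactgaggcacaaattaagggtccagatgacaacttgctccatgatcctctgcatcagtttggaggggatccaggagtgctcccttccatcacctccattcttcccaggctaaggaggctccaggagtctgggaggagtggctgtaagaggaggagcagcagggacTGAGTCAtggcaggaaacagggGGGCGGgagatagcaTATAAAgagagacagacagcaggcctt
Col3a1: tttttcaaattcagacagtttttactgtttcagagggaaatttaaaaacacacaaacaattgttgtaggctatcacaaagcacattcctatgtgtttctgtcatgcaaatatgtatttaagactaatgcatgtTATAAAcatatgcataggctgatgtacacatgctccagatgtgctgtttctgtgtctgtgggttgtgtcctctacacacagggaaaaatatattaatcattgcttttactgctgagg

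The Reln window was 80.0% G or C and held 6 GC boxes and 1 E-box. The Rgs5 window (53.6%) held 1 CCAAT box, the Ecm1 window (54.0%) held 1 TATA box, 1 GC box and 1 AP-1 site, and the Col3a1 window (35.2%) held 1 TATA box. Over all 32851 windows of the same length in the table, 12.4% held a TATA box, 33.8% a CCAAT box, 32.7% a GC box, 6.75% an AP-1 site and 6.02% an E-box, and the median G or C content was 52.4%. A match describes letters in the reference, not a bound site.

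Within a strain the genes deviated mostly in the same direction from library to library. PWK/PhJ replicate 1 was the highest of its 3 libraries for all 10 genes, and CAST/EiJ replicate 1 and DBA/2J replicate 4 were the lowest of 3 for all 10. In 129S1/SvImJ replicate 3, A/J replicate 3 and C57BL/6J replicate 4, 9 of the 10 genes were at their strain's highest. Deviations of log2 CPM from the strain mean were correlated positively in all 45 pairs of genes, with a median Pearson r of 0.71 (0.18 to 0.96) over the 27 libraries, and r exceeded 0.5 in 37 pairs. Dcn and Ecm1 (0.96), Colec11 and Ecm1 (0.94) and Colec11 and Dcn (0.92) were closest. Over the 9 strain means the median r was 0.55, from -0.08 to 0.96. All these values share libraries and depth.

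**Figure D3:**
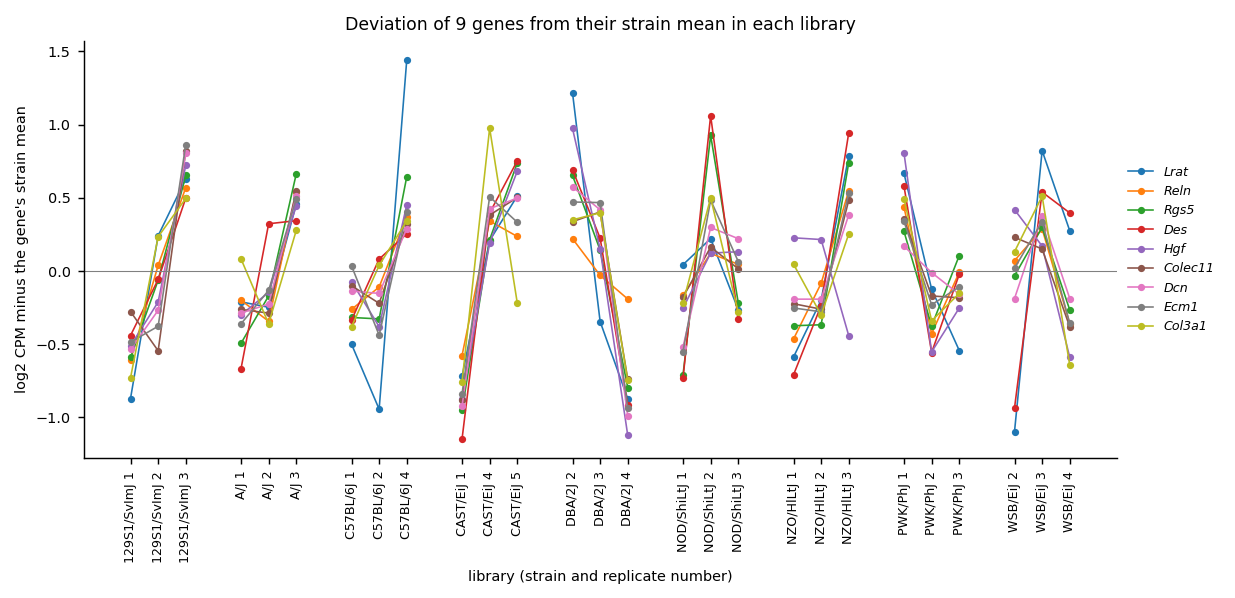
Deviation of log2 CPM from the gene's strain mean (vertical axis) in each of the 27 libraries (horizontal axis) for 9 genes, with lines joining the libraries of a strain. Col1a1 is left out because 4 libraries had 0 counts. Most lines of a strain slope the same way and some cross, such as Hgf and Ecm1 in NZO/HlLtJ. CAST/EiJ replicate 1 and DBA/2J replicate 4 are the lowest of their 3 libraries for all genes drawn.

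Endothelial markers moved alongside. The summed CPM of 12 endothelial genes ran from 66.4 to 844, and in 9 of 9 strains the library with the highest sum of the 10 genes was also the highest in this endothelial sum. In CAST/EiJ that agreement rests on a near tie, since replicates 4 and 5 both summed to 79.6 CPM over the 10 genes and to 188 and 187 CPM over the endothelial genes. The lowest library was the same in 8 of 9 strains. For Kupffer cell markers, whose sum ran from 35 to 442, the highest library was the same in 4 of 9 strains, and for hepatocyte markers likewise in 4. Over all 18 lists other than the endothelial one the highest library was the same in 1 to 8 of 9 strains, with 8 for TGF-beta genes and for other matrix genes, 5 for other stellate cell genes, 3 for collagen processing and 1 for immediate early genes. Such sums follow their most abundant genes. Ecm1 made up 37.0% of the sum of the 10 genes. Cxcl12 made up 84.7% of the other stellate cell sum, and Vtn 41.1% of the matrix sum. PWK/PhJ replicate 1 stood apart, with an endothelial sum of 844 against 247 and 303 in the other PWK/PhJ libraries and a Kupffer cell sum of 442. Against the other strains 12 of 12 endothelial genes were higher in PWK/PhJ (19.4% of all genes) and 10 of 12 lower in NZO/HlLtJ (12.9% of all genes). Without PWK/PhJ replicate 1 the first count was 5 (14.1% of all genes), and without NZO/HlLtJ replicate 1 or 2 the second was 2 (5.57% and 5.77%). Of 10 Kupffer cell genes 6 were higher and 1 lower in PWK/PhJ (19.4% and 14.8% of all genes), but 1 was higher and 1 lower without its replicate 1 (14.1% and 12.5%). In NZO/HlLtJ 1 of the 10 was higher and 1 lower (14.8% and 12.9% of all genes), and without its replicate 2 none was higher (8.25%). Kupffer cell genes were also higher in C57BL/6J (10 of 10, beside 11.6% of all genes) and A/J (7, beside 15.9%). They were lower in CAST/EiJ (5, beside 17.8%) and 129S1/SvImJ (4, beside 7.86%). None was called in DBA/2J, NOD/ShiLtJ or WSB/EiJ. The part of these cells in the strain differences was not tested.

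**Figure D4:**
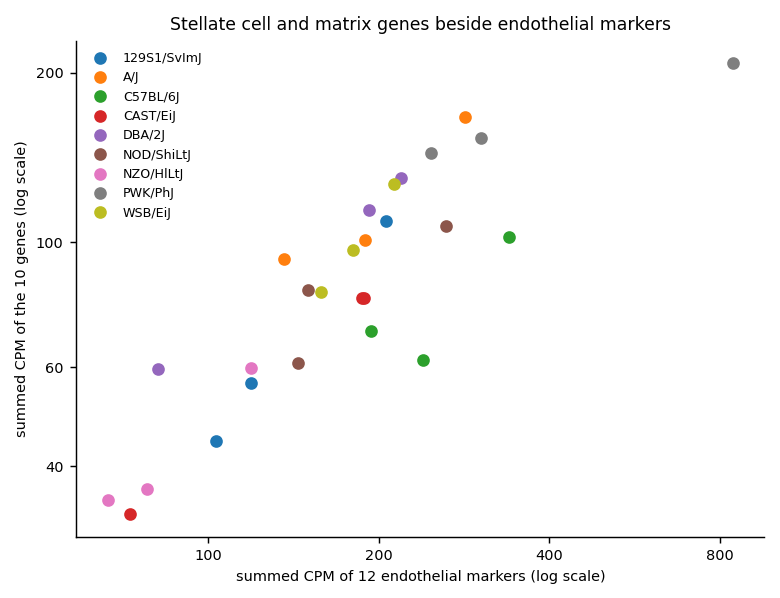
Summed CPM of the 10 genes (vertical, log scale) against summed CPM of 12 endothelial markers (horizontal, log scale), 1 point per library, coloured by strain. PWK/PhJ replicate 1 is at the upper right (844 and 208) and NZO/HlLtJ replicate 1 at the left (66.4 and 34.8).

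Dividing a gene's counts by the Dcn counts of the same library shows what the strains did differently among the 10 genes, free of library size. Within strains these ratios spread less than the levels for all 8 genes with counts in every library: the SD fell from 0.56 to 0.16 (log2) for Ecm1 and from 0.49 to 0.21 for Colec11. Between-strain shares of the sum of squares rose for Ecm1 from 71.1% to 89.2%, for Rgs5 from 70.6% to 85.1% and for Reln from 77.2% to 86.7%. They fell for Hgf from 71.5% to 66.3% and for Lrat from 38.9% to 36.3%. Ratios were taken without a prior count, unlike the log2 CPM beside them. Dcn itself differed among strains (adjusted p 0.0147 by edgeR), and the share of a ratio includes that difference. The ratios are a description, with no test.

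Reln over Dcn was 2.20, 0.991 and 0.927 in DBA/2J and 1.45, 1.01 and 1.01 in NOD/ShiLtJ, and ran from 0.207 to 0.677 in the other 7 strains. The first of the DBA/2J values came from replicate 4, where Dcn was lowest. Ecm1 over Dcn lay between 2.04 and 2.66 in WSB/EiJ and between 1.70 and 2.23 in PWK/PhJ, and between 0.935 and 1.56 in the other strains. Colec11 over Dcn was 0.305 to 0.385 in PWK/PhJ and 0.139 to 0.286 elsewhere. In all of these the named strains did not overlap with the rest.

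Rgs5 over Dcn was lowest in CAST/EiJ, at 0.133 to 0.181, where the level of Dcn itself was close to the mean of the other strains (log2 -0.03 ± 0.29). All other libraries were higher, and NOD/ShiLtJ had the highest mean, with 0.466 to 0.974. In NZO/HlLtJ, where 7 of the 10 genes were lower in level, the ratios to Dcn of Colec11 (0.207 to 0.233), Ecm1 (0.993 to 1.17), Reln (0.5 to 0.677), Rgs5 (0.192 to 0.280) and Col3a1 (0.0431 to 0.0556) lay within the range of the other strains. Hgf over Dcn was 0.0235 in 1 NZO/HlLtJ library, below every library of the other strains (lowest 0.034, in DBA/2J), and 0.0553 and 0.0556 in the other two. Col3a1 over Dcn was lowest on average in 129S1/SvImJ, at 0.021 to 0.0367, and CAST/EiJ had 0.0181 to 0.0436.

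**Figure D5:**
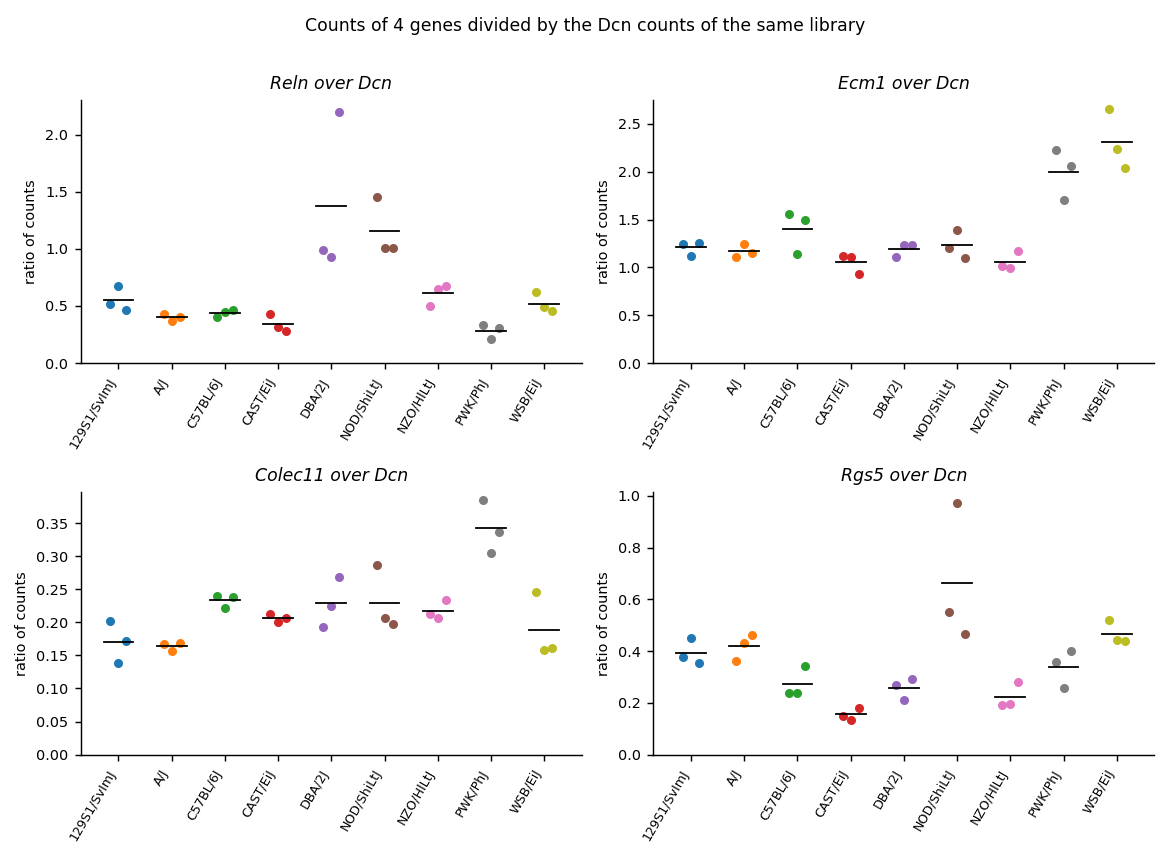
Counts of Reln, Ecm1, Colec11 and Rgs5 divided by the Dcn counts of the same library (vertical axes, linear, starting at 0), by strain. Points are libraries and bars are means of 3. Reln over Dcn exceeds 0.9 only in DBA/2J and NOD/ShiLtJ, and Ecm1 over Dcn is at least 1.70 only in PWK/PhJ and WSB/EiJ.

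Other genes of stellate cells followed in part. Of 21 tested 15 were called for any strain difference (beside 74.2% of all genes), with a median F of 4.51 (4.39 over all genes). In PWK/PhJ 13 of the 21 were higher (19.4% of all genes) and none lower, and in NZO/HlLtJ 6 were lower (12.9% of all genes) and none higher. Without PWK/PhJ replicate 1 the first count was 8 (14.1% of all genes), and without NZO/HlLtJ replicate 1 or 2 the second was 1 of 22 tested (5.57% and 5.77%). Sod3, extracellular superoxide dismutase, averaged 20.8 CPM in PWK/PhJ and 3.43 CPM in NZO/HlLtJ. Ramp1, a receptor activity-modifying protein, averaged 2.68 CPM in PWK/PhJ and 0.347 CPM in DBA/2J. Cxcl12, the most abundant of the list at 275 CPM, made up 84.7% of its sum.

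The other lists are read against 74.2% of all genes called for any strain difference. In PWK/PhJ 19.4% of all genes were called higher and 14.8% lower, and in NZO/HlLtJ 14.8% higher and 12.9% lower. Among TGF-beta genes 10 of 13 tested were called, a share near that of all genes. In PWK/PhJ 8 were higher and none lower, and in NZO/HlLtJ 1 was higher and 7 lower, the latter being 4 without replicate 1 of that strain (5.57% of all genes) and the former 0 without replicate 2 (8.25%). Tgfbr2, the type II receptor, averaged 34.5 CPM in WSB/EiJ and 3.90 CPM in NZO/HlLtJ, and Ltbp4, a latent TGF-beta binding protein, 31.0 ± 21.2 CPM in PWK/PhJ and 2.39 CPM in NZO/HlLtJ. Of 6 PDGF genes 5 were called. Pdgfc, a ligand, was at 8 CPM in NOD/ShiLtJ and 1.61 CPM in WSB/EiJ. Among other matrix genes 22 of 24 tested were called, with 11 higher and 5 lower in PWK/PhJ and 2 higher and 14 lower in NZO/HlLtJ. Without PWK/PhJ replicate 1 the higher count there was 5 (14.1% of all genes), and without its replicate 2 or 3 the lower count was 3 (10.5% and 11.9%). Without NZO/HlLtJ replicate 1 or 2 the lower count there was 7 or 8 (5.57% and 5.77%), and without its replicate 3 the higher count was 1 (11.1%). Col15a1, a chain of type XV collagen, went the other way, at 17.2 ± 3.11 CPM in NZO/HlLtJ, its highest strain, and 2.32 ± 0.186 CPM in WSB/EiJ. Fn1 (2720 CPM) and Vtn (3200 CPM), plasma proteins that hepatocytes make, were the most abundant of them. Of 6 proteases and inhibitors of the matrix all 6 were called, with 1 higher and 2 lower in PWK/PhJ (1 lower without its replicate 2 or 3, beside 10.5% and 11.9% of all genes) and 1 lower in NZO/HlLtJ. In WSB/EiJ 4 of the 6 were higher and none lower (15.5% and 9.25% of all genes). Mmp19, a matrix metalloproteinase with the largest F of them (13.7), averaged 146 CPM in DBA/2J and 45.6 CPM in PWK/PhJ, its lowest strain. Timp3, an inhibitor of metalloproteinases, was at 8.19 CPM in PWK/PhJ and 0.645 CPM in NZO/HlLtJ.

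Partners of single genes were measured as well. For Hgf, 7 of 8 tested genes of its pathway were called for any strain difference, beside 74.2% of all genes. The receptor Met averaged 118 CPM and was highest in CAST/EiJ (152 CPM) and lowest in NOD/ShiLtJ (77.4 CPM), and the activating protease Hgfac ran from 158 CPM in NOD/ShiLtJ to 430 CPM in WSB/EiJ. For Reln, the receptor Vldlr averaged 21.6 CPM in 129S1/SvImJ and 1.22 CPM in PWK/PhJ, and the adaptor Dab1 0.751 and 0.0644 CPM in 129S1/SvImJ and CAST/EiJ. The order of strains for these partners was not that of Reln, which was highest in DBA/2J. For Colec11, all 6 lectin pathway partners were called, and Mbl1, a mannose-binding lectin, ran from 102 CPM in NZO/HlLtJ to 255 CPM in A/J. Of the retinoid genes 8 of 10 tested were called, near the share of all genes, with Lpl, lipoprotein lipase, at 62.1 CPM in A/J and 2.27 CPM in CAST/EiJ.

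Genes whose log2 CPM followed each of the 8 genes averaging at least 1 CPM most closely over the 27 libraries were taken from 12684 genes. Ecm1 was closest to Plvap, an endothelial protein (Pearson r 0.965), Bgn, biglycan (0.955), and Pth1r (0.915). Dcn was closest to Gdf2, also called BMP9 (0.919), Colec10 (0.898) and Ecm1 (0.893). Hgf was closest to Msn (0.928), Mrc1, the mannose receptor (0.922), and Ptprm (0.914), and Colec11 to Gpihbp1 (0.893), Gucy1b1 (0.891) and Emilin1 (0.890). Rgs5 was closest to Abcc9 (0.848), Bgn (0.844) and Dpp7 (0.839).

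Lrat was closest to Rgs5 (0.810) and Des (0.802), both among the 10 genes, and to Lrig2 (0.755). Reln was closest to Egfem1 (0.795), Tmem106c (0.783) and Tmem19 (0.782). Col3a1 was closest to Apoa2, an apolipoprotein at 5990 CPM (0.901), Ncmap (0.884) and C2, a complement component (0.875). After removal of strain means the correlation of Col3a1 with Apoa2 was 0.680 and with Ncmap 0.394, whereas that of Ecm1 with Plvap remained 0.940. That of Reln was 0.629 with Egfem1, which averaged 0.136 CPM, 0.296 with Tmem106c and 0.514 with Tmem19. For Rgs5 it was 0.852 with Abcc9, 0.907 with Bgn and 0.544 with Dpp7.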

How the data were processed

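RNA was measured in 27 hepatocyte libraries of 9 strains. The authors' deposited table holds estimated counts per Ensembl gene, not scaled to depth, and 11.1% of its values were not whole. Polyadenylated RNA was sequenced with a kit that does not mark strand, per the labels' protocols. Per the submitters' processing notes, FastQC 0.11.5, DESeq2 and the builds GRCm38 and mm10 were used, with no roles given. The aligner, the counter, the annotation release and whether reads were aligned to each strain's own genome are not given in the sources used here, and this can change counts of divergent strains. Replicates are called biological in the labels.

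Counts were rounded (library totals changed by at most 0.00026%) and tested in R 4.3.3 with edgeR 4.0.16: filterByExpr by strain, TMM, and a quasi-likelihood model of strain over all libraries. P-values were adjusted by Benjamini and Hochberg over all 14482 genes and called under 0.05. Log2 CPM used a prior count of 2. CPM are scaled to TMM library sizes. Genes without a symbol held 0.0579% of counts. The code was tested on simulated data. The 27 pairs of libraries within strains all differed beyond counting noise (chi-square per degree of freedom 24.4 to 135). Counting limits cover counting error only.

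The 10 genes and the companion lists were chosen with earlier results of these data known. Genes named beside the 10 are, per list, the 3 tested genes with the largest F and the 2 most abundant, and per gene the 3 best correlated (not all are printed). All contractile genes and Gfap were named for their counts, which was chosen after their values were seen. Alternatives were DESeq2 1.42.0, median-of-ratios (RLE) size factors, no count filter, a mean of at least 10 counts, a replicate block, and leaving out each library.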

Additional observations from a re-analysis of the deposited data

How the results depend on the processing

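The number of the 10 genes called for any strain difference was 7 by edgeR and 8 by DESeq2, where Col1a1 joined (adjusted p 0.0416). It was 7 with RLE size factors, 8 without the count filter, where Lrat joined (0.0338), and 7 of 9 tested with a mean of at least 10 counts. Leaving out each library gave 7 to 8. The genes called among all ran from 9350 to 11445 under all alternatives, beside 10746. Calls of a strain against the other 8 numbered 23, and 15 to 26 when a library was left out. The lowest, 15, came without NZO/HlLtJ replicate 1 or 2, whereas leaving out its replicate 3 gave 23. The cause was not tested. The other alternatives gave 20 to 25. With RLE size factors the calls of Col3a1 in C57BL/6J (0.0511), Dcn in A/J (0.0519) and Ecm1 in WSB/EiJ (0.0508) were lost. Pair calls ran from 71 to 98 beside 77.

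Deviations of 76 pairs with the same replicate number had a mean correlation of 0.01 (-0.293 to 0.275). Of 27 libraries 7 correlated best with their own number. Such a mean cannot exclude a batch shared by some same-numbered libraries. With the number as a replicate block 7 of the 10 genes, 9350 genes in all, 21 calls against the other strains and 77 pairs were called. Lost under the block were Col3a1 in CAST/EiJ (0.178) and C57BL/6J (0.0586) and Ecm1 in WSB/EiJ (0.0888), as was the pair Col3a1 in PWK/PhJ over CAST/EiJ (0.158). Rgs5 in NOD/ShiLtJ was gained (0.0443, beside 0.0735). Col1a1, with at most 14 counts, and Des, with at most 42, limit what depth allows.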

Other observations

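Col5a2, a chain of type V collagen that assembles with type I and type III collagen, is the neighbour of Col3a1 on chromosome 1 (GRCm38, 45374321 to 45503282, minus strand), 24614 bases away with no annotated gene between them. It had the largest F of the matrix genes (271, adjusted p 1.19e-18 by edgeR). WSB/EiJ libraries measured 676, 755 and 224 CPM and PWK/PhJ libraries 293, 246 and 184 CPM, whereas the 21 libraries of the other 7 strains ran from 0.380 to 2.30 CPM with a median of 0.759 CPM. Every WSB/EiJ and PWK/PhJ library was thus far above every other library. Col3a1 in the same libraries ran from 1.37 to 3.07 CPM and was not called in either strain against the other 8 (adjusted p 0.0686 in WSB/EiJ and 0.436 in PWK/PhJ). Whether the authors aligned reads to strain genomes is not given in the sources used here, and its part in this difference was not tested.

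Col5a3, the third chain of that type, was highest in DBA/2J (24.4 ± 8.28 CPM) and lowest in 129S1/SvImJ (0.669 ± 0.124 CPM). Lum, lumican, a proteoglycan related to decorin and chosen after its values were seen, held 0 to 1 counts per library in CAST/EiJ and 36 to 80 counts in A/J. Thy1, a marker of portal fibroblasts and lymphocytes, held 0 counts in all 3 CAST/EiJ libraries, which allows up to 3 counts each, and averaged 2.5 ± 0.873 CPM in PWK/PhJ. Tpm2, a tropomyosin, averaged 3.87 ± 2.07 CPM in C57BL/6J and 0.0801 ± 0.0924 CPM in CAST/EiJ. Mylk, myosin light chain kinase, was abundant at 66.1 CPM where the contractile genes Acta2 and Myh11 were near 0.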
